A study of Drosophila melanogaster with 4 samples.

Results

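The loci of broad (br) and Ecdysone-induced protein 75B (Eip75B) were examined in larvae of Drosophila melanogaster for H3K9me1, the mono-methylated form of lysine 9 of histone H3. Each locus was taken as a fixed window on FlyBase release 5 of the genome. The br window ran from 1420000 to 1530000 on X (110 kb), and the Eip75B window from 17940000 to 18065000 on 3L (125 kb). The members are all listed regions that overlap a window, 57 of the 33888 regions in the 3 lists the authors deposited. Of these 57, 55 were listed as enriched, called domains below, and 2 as depleted.

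The study mapped H3K9me1 by chromatin immunoprecipitation and sequencing (ChIP-seq). All 4 samples were nuclei of wild-type Oregon-R larvae of the third instar, with no treatment named: 2 ChIP replicates made with lot 2 of the antibody, and 2 inputs of unprecipitated chromatin, each the background of the ChIP with its number. The authors deposited 1 region list per ChIP replicate and a combined list. The labels name no tissue, so a domain cannot be told apart as carried by all cells or by some of them. They also do not say whether the replicates came from separate collections of larvae, so their spread may be technical in part.

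Ecdysone is the steroid hormone that drives moulting and metamorphosis in insects. It acts through a heterodimer of the nuclear receptors EcR and Usp, which switches on a small set of early genes that in turn regulate many late genes. Both br and Eip75B are classical early genes, known from puffs that the hormone induces in the salivary gland chromosomes of late larvae. The br gene encodes transcription factors that share a BTB domain and differ in their zinc fingers through alternative splicing, and it is required for entry into metamorphosis. Eip75B encodes nuclear receptors made from alternative promoters, whose ligand-binding domain binds heme, and it acts in the timing of the response and in the control of ecdysone synthesis. H3K9me1 is the first methylation state of a lysine whose higher states are best known from heterochromatin.

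The windows were chosen by gene, with the covered share, length and score of domains in these same lists already known. Values of these measures inside the windows are therefore a description, without a test. No gene annotation on release 5 was used here. How much of each gene its window holds, and which of its bases are promoter, exon or intron, was therefore not checked. In the RefSeq gene table, which is on release 6, br spans 89.7 kb with 16 listed transcripts and Eip75B 113.7 kb with 7. The nearest protein-coding genes on either side of br in that table are inc, which acts in the control of sleep, and dor, which encodes a vesicle-trafficking protein. Mur2B overlaps br there. Eip75B lies between lncRNA:CR45393 and CG44006 in that table and is overlapped by CG32192, CG42393, lncRNA:CR45921 and lncRNA:CR45922.

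Most of the br window lay inside H3K9me1 domains in every list. Replicate 1 covered 89.4% of its bases and replicate 2 covered 80.8%, a mean of 85.1% ± 6.06 (SD, n = 2). For the combined list the share was 92.7%. On X as a whole the domains of replicate 1 covered 27.3% and those of replicate 2 covered 40.2%. The window thus held 3.27 times the share of its arm in replicate 1 and 2.01 times in replicate 2. It makes up 0.491% of the length of X, and it held 1.60% of the covered bases of X in replicate 1 and 0.986% in replicate 2.

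**Figure D1:**
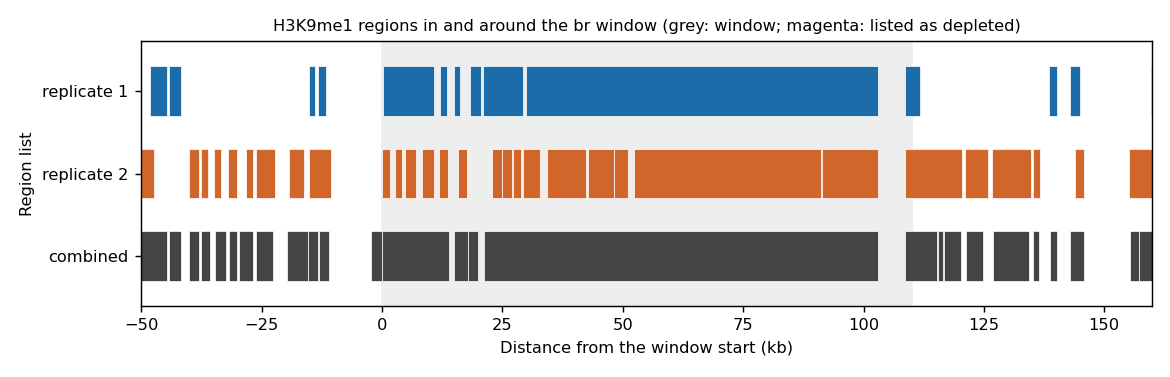
Regions of the 3 lists (rows) in the br window (grey) and 50 kb on either side, against the distance from the window start in kb; each bar is a domain. A block of 81.7 kb in the combined list fills most of the window, is nearly unbroken in replicate 1 and is split into 9 domains in replicate 2, and a gap of 5.60 kb (combined list) to 5.77 kb (replicate 2) follows it.

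A single block made up most of the mark in the br window. In the combined list it ran from 1441268 to 1523003, measured 81.7 kb and made up 74.3% of the window. Replicate 1 listed 2 domains over it, from 1441067 to 1449221 (8.16 kb) and from 1449858 to 1522945 (73.1 kb), which together filled 99.2% of it. Replicate 2 listed 9 domains over the same block, from 1.54 kb to 38.9 kb long, and left 5664 bp of it uncovered. Its longest, from 1472312 to 1511225, took up 47.6% of the block, and the next domain followed after 133 bp. From 60 kb to 90 kb into the window each bin of 10 kb was covered to 100% in all 3 lists.

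The part of the window before the block was more broken. The combined list held domains from 1419994 to 1433833 (13.8 kb), from 1434928 to 1437808 (2.88 kb) and from 1437866 to 1439965 (2.10 kb) there. Replicate 1 listed 4 domains in this stretch and replicate 2 listed 6, and they covered 53.1% and 44.3% of the bin from 10 kb to 20 kb. The third of the combined domains overlapped no domain of replicate 2. After the block came an uncovered stretch, from 1523004 to 1528600 in the combined list, and then a domain that ran out of the window, from 1528601 to 1535288. That last domain ended at 1531687 in replicate 1 and at 1540409 in replicate 2.

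The highest score that the authors gave in the br window lay in the block in every list. In replicate 1 and the combined list, all domains before the block scored lower than those in it. Replicate 2 did not show this throughout. No source at hand gives the scale of the score, so it only ranks domains within a list here. The domain of 73.1 kb in replicate 1 ranked 2 of 8304 by score and 6 by length, and was the first on X by both. In the combined list, the block ranked 10 of 13702 by score and 1 by length. In replicate 2, scores were lowest at the start of the block and highest at its end. Its 3 domains from 1442838 to 1448782 lay above 59.5%, 59.6% and 26.7% of the list, the domain of 38.9 kb above 98.0% (rank 232 of 11820), and the last, from 1511359 to 1522923, above 99.6% (rank 47). That last domain measured 11.6 kb and ended at the uncovered stretch. Before the block, the domain of replicate 2 from 1428223 to 1430789 lay above 67.5% of the list, higher than the first 3 of the block.

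The Eip75B window was also largely covered, somewhat less than that of br. Replicate 1 covered 82.7% of its bases and replicate 2 covered 72.4%, a mean of 77.5% ± 7.27 (SD, n = 2). For the combined list the share was 82.5%. Each list covered less of Eip75B than of br, although replicate 1 at Eip75B lay above replicate 2 at br. Both loci were measured in the same 2 ChIP replicates, so they are compared here within each list. With 2 replicates the difference between the loci was not tested. On 3L as a whole the domains of replicate 1 covered 33.9% and those of replicate 2 covered 28.5%, and the window held 2.44 and 2.54 times these shares. The window makes up 0.509% of 3L and held 1.24% of the covered bases of the arm in replicate 1 and 1.29% in replicate 2.

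**Figure D2:**
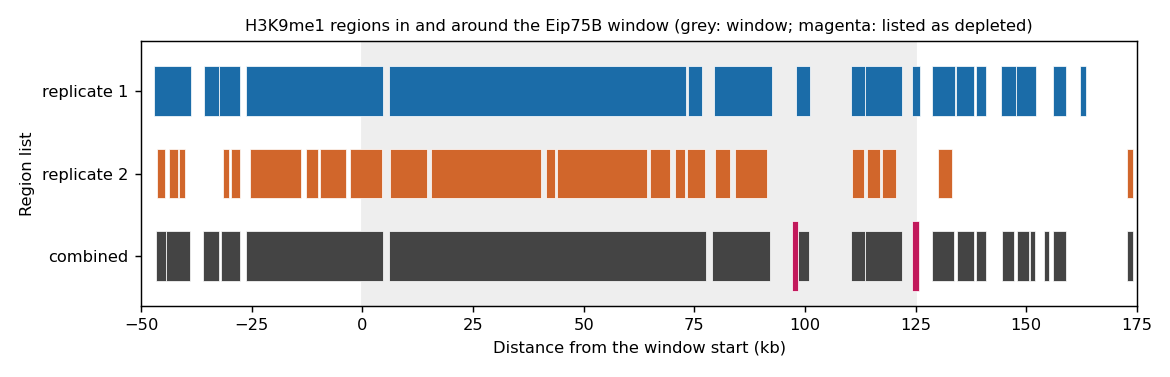
Regions of the 3 lists (rows) in the Eip75B window (grey) and 50 kb on either side, against the distance from the window start in kb; bars are domains, and magenta bars are regions listed as depleted. A block of 71.5 kb fills the first part of the window in the combined list, domains go on to the left of the window, and the last part of the window holds gaps and 2 depleted regions.

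Here too a long block carried most of the mark, and it was flanked by further domains. In the combined list it ran from 17946101 to 18017560, measured 71.5 kb and made up 57.2% of the window. Replicate 1 listed 2 domains over it, from 17946102 to 18013040 (66.9 kb) and from 18013550 to 18016755 (3.21 kb), which filled 98.2% of it. Replicate 2 listed 7, from 2.06 kb to 24.8 kb long, which filled 93.3% and left 4788 bp. A domain of 30.9 kb, from 17913717 to 17944626, entered the window from the left and ended 1474 bp before the block. On the right, a domain of 13.2 kb followed, from 18018969 to 18032181, and 79.97% of it lay in domains of replicate 2.

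Toward its higher end the Eip75B window held gaps between shorter domains. The combined list held 3 more domains there, from 18038388 to 18040973 (2.59 kb), from 18050509 to 18053459 (2.95 kb) and from 18053604 to 18061931 (8.33 kb). The first of these lay wholly within replicate 1 and overlapped no domain of replicate 2. Uncovered stretches of the combined list measured 6.21 kb, from 18032182 to 18038387, 9.54 kb, from 18040974 to 18050508, and 3.07 kb, from 18061932 to the window end. In replicate 2 a single gap of 19.3 kb, from 18031461 to 18050710, spanned the first 2 of them. The bin from 100 kb to 110 kb into the window was covered to 10.7% in replicate 1 and held no domain of replicate 2, while the next bin was covered to 94.7% and 80.9%.

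The longest domains of the Eip75B block also ranked high by score, and short ones of replicate 2 varied. The domain of 66.9 kb ranked 29 of 8304 by score in replicate 1 and 8 by length, and the block ranked 53 of 13702 by score and 6 by length in the combined list. The highest score of replicate 2 in this window belonged to the first domain of the block, from 17946171 to 17954575 (8.41 kb, rank 132 of 11820). Its longest domain, from 17955489 to 17980279, ranked 607 by score and 9 by length. Between its longer domains, those from 17981478 to 17983539 and from 18010623 to 18012831 had scores above 32.5% and 62.5% of the list. At the other extreme, the domain of replicate 1 from 18064128 to 18065981 had a score above only 8.60% of the list.

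**Figure D3:**
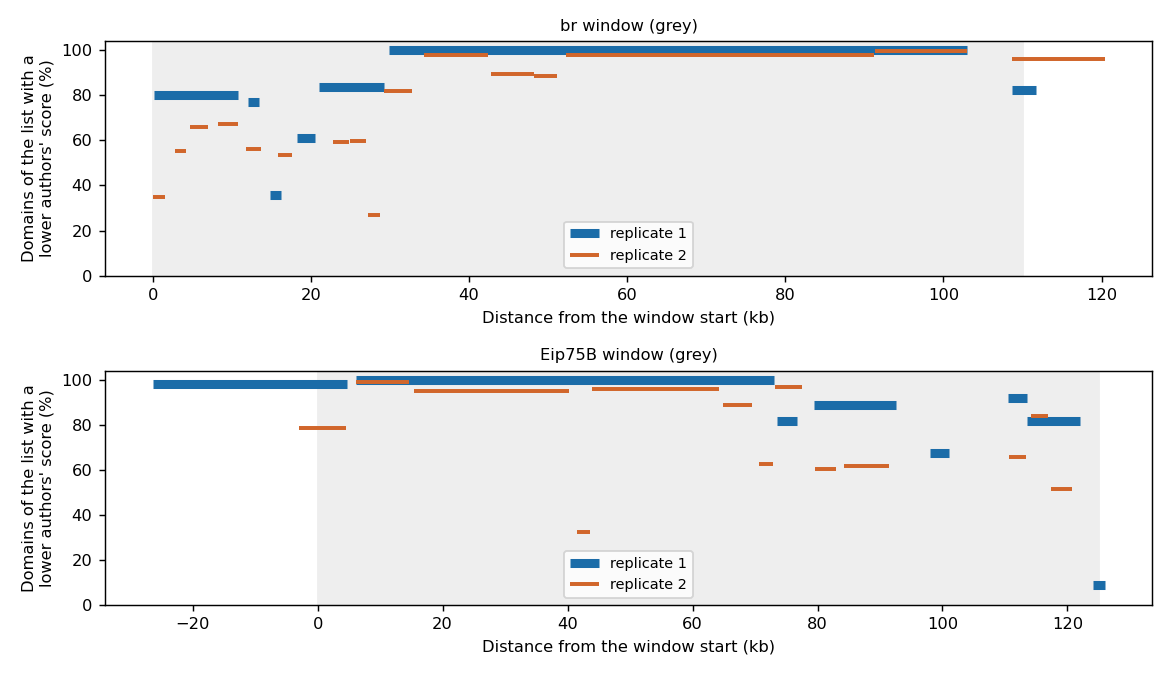
Each domain of replicate 1 (thick blue) and replicate 2 (thin orange, drawn on top) in the br window (upper panel) and the Eip75B window (lower panel), drawn over its length in kb from the window start at the share of domains of its own list with a lower authors' score, in percent. The longest domains lie near the top in both lists, while short domains, also some of replicate 2 inside the blocks, reach down to 26.7% at br and 32.5% at Eip75B, and 1 of replicate 1 at the end of the Eip75B window lies at 8.60%.

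Regions listed as depleted occurred only in the Eip75B window and only in the combined list. The first, from 18036987 to 18038384 (1398 bp, authors' score -0.092), began in the gap after the domain of 13.2 kb and ended 4 bp before the next one. Replicate 1 listed a domain over 387 bp of it. The other, from 18064256 to 18065814 (1559 bp, authors' score -0.029), crossed the window end. All 1559 bp of it lay inside the low-ranking domain of replicate 1, so the lists went against each other over these bases. Replicate 2 held no domain over either region. The combined list holds 49 depleted regions in all, and these ranked 7 and 26 from the lowest score.

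The windows were set beside windows of equal size on the same arm, moved in steps of 10 kb and leaving out those that overlap the locus. On X, 1 of 2210 shifted windows was covered as much as the br window in replicate 1. For replicate 2 and for the combined list there were 3 each. The median shifted window was covered to 24.8%, 41.3% and 45.9%. No shifted window reached the br values in both replicates at once. Bases inside domains of both replicates made up 78.5% of the br window, against a median of 15.7% and a highest value of 76.4% on X, the latter from 2160001 to 2270001.

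Eip75B stood lower among the windows of its arm. On 3L, 61 of 2417 shifted windows were covered at least as much by replicate 1, 39 by replicate 2 and 90 by the combined list, with medians of 32.8%, 26.7% and 44.2%. In both replicates at once, 30 shifted windows reached the values of Eip75B, and they lay at 2 places on the arm. Bases in domains of both replicates made up 71.6% of the window, against a median of 14.9% and a highest value of 86.7%, from 700001 to 825001. Shifted windows overlap one another, so these counts describe the arms and are not independent cases.

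**Figure D4:**
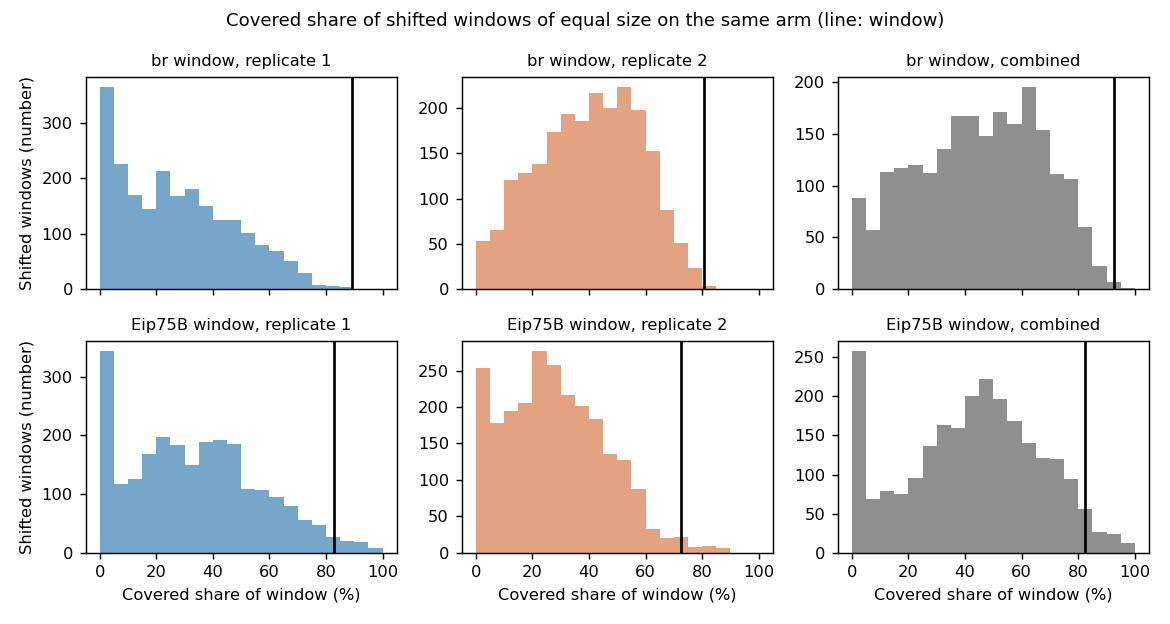
Number of shifted windows of equal size on the same arm by their covered share in percent, for the br window on X (upper row) and the Eip75B window on 3L (lower row) in each list; the black line marks the window itself. The br line lies at the end of each distribution, at 89.4%, 80.8% and 92.7%, and the Eip75B line, at 82.7%, 72.4% and 82.5%, lies within the upper tail.

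Both windows held domains that were long for their arms, while domain numbers lay near the median of the shifted windows or below it. Replicate 1 listed 7 domains in the br window, replicate 2 listed 16 and the combined list 5, against medians of 8, 15 and 16 over the shifted windows of X. For Eip75B the numbers were 8, 13 and 6, against medians of 10, 13 and 16 on 3L. The longest domain of the br window, 73.1 kb in replicate 1, was longer than in any shifted window of X, where the highest was 45.6 kb. In replicate 2 its longest, 38.9 kb, was reached by 16 of the 2210 shifted windows, where the highest was 42.0 kb. For Eip75B, 38 of 2417 shifted windows held a domain of at least 66.9 kb in replicate 1, and 15 held one of at least 24.8 kb in replicate 2. By the highest score in a window, br exceeded every shifted window in replicate 1 and was reached by 167 in replicate 2. For Eip75B, 113 windows reached its highest score in replicate 1 and 195 in replicate 2.

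Domains of 10 kb or more made up 6.62% of the domains on X for replicate 1, 2.55% for replicate 2 and 4.92% for the combined list. At br they were 2 of 7, 3 of 16 and 2 of 5 in the same order. On 3L the shares were 9.91%, 2.01% and 6.09%, and at Eip75B 3 of 8, 2 of 13 and 3 of 6 domains were this long. Scores above the median of the whole list were found on X in 60.7% of the domains of replicate 1, 67.9% of replicate 2 and 66.7% of the combined list, and in 6 of 7, 14 of 16 and 5 of 5 at br. The shares on 3L were 48.2%, 43.9% and 46.4%, with 7 of 8, 12 of 13 and 6 of 6 at Eip75B. Length and score were known when the windows were chosen, so nothing is read from these counts.

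Most domains in both windows met a domain of the other replicate, as did most domains of both arms. A domain was counted as shared where it met a domain of the other replicate by at least 1 bp. The shared portion on X was 80.5% for replicate 1 and 50.5% for replicate 2, and at br it was 6 of 7 and 16 of 16 domains. On 3L the shares were 65.0% and 68.4%, with 6 of 8 and 13 of 13 at Eip75B. For replicate 1, the shares of 85.7% at br and 75% at Eip75B rest on few domains and lay near those of the arms. Combined domains that met both replicates were 36.6% on X and 4 of 5 at br, and 39.2% on 3L and 5 of 6 at Eip75B. A long domain can meet others more easily, and whether these counts follow length was not tested.

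In bases, an index of agreement came out nearly the same at the 2 loci, which differed in coverage. The Jaccard index, the bases in domains of both replicates over those in either, was 0.858 in the br window and 0.858 in the Eip75B window. The index rises with the covered share, which was known when the windows were chosen. With these shares it could not have been below 0.701 at br and 0.550 at Eip75B. Its rank against less covered windows is therefore not used here, and the equal values are not read as equal agreement. Of the bases of replicate 2, 97.2% at br and 98.9% at Eip75B also lay in domains of replicate 1. In the other direction the shares were 87.9% and 86.6%. Of all bases of the windows, replicate 1 covered 89.4% at br and 82.7% at Eip75B, and replicate 2 covered 80.8% and 72.4%. High shares in common thus follow in part from the coverage.

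**Figure D5:**
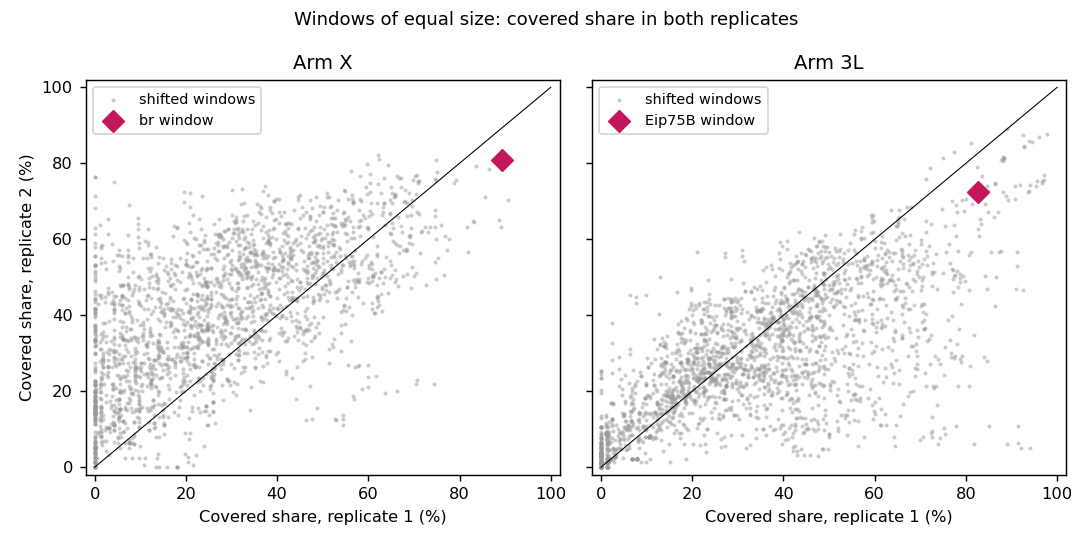
Covered share in replicate 1 (x axis, percent) and in replicate 2 (y axis, percent) of shifted windows on X (left) and 3L (right), with the br and Eip75B windows as diamonds and a line of equal shares. No shifted window of X reaches the br window on both axes at once, while 30 shifted windows of 3L reach Eip75B.

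Where the replicates differed, replicate 1 mostly listed more. At br 11885 bp lay in domains of replicate 1 only, in 17 stretches with a median of 439 bp, and 2457 bp in replicate 2 only, in 5 stretches. Gaps of replicate 2 inside the block account for 5538 of the 11885 bp. At Eip75B 13854 bp lay in replicate 1 only, in 18 stretches, and 994 bp in replicate 2 only, in 2 stretches. The longest of these stretches were the domains from 1438273 to 1440500 on X and from 18037998 to 18041068 on 3L, each listed in replicate 1 and not in replicate 2.

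Replicate 2 minus replicate 1 was -8.57 percentage points in the br window. Over the whole of X the same difference was 12.9 points, with a median of 12.4 over the shifted windows, and 9.37% of these lay below the br window. Within these window edges the difference thus went the other way from the arm, but it depended on the edges. Widened by 10 kb on each side, the window was covered to 76.9% by replicate 1 and 76.0% by replicate 2. Widened by 30 kb, it was covered to 61.4% and 74.4%, the same direction as the arm. At Eip75B the difference was -10.3 points, against -5.41 on 3L as a whole and a median of -0.88 over its shifted windows. With 2 replicates these differences were not tested.

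Some borders of the blocks fell at nearly the same base in all 3 lists, and others did not. Replicate 1 ended the br block at 1522945 and replicate 2 at 1522923, 22 bp apart, and the combined list ended it at 1523003. The domain after the gap began at 1528630 and 1528691, 61 bp apart. The lower end of the br block was less sharp, at 1441067 in replicate 1 and 1442838 in replicate 2. At Eip75B the block began at 17946102 in replicate 1 and 17946171 in replicate 2, 69 bp apart, and its higher end differed by 693 bp. Over the borders of combined domains inside the windows, the nearest border of the same kind lay within 500 bp for 6 of 8 at br in replicate 1 and 4 of 8 in replicate 2. At Eip75B it did so for 9 of 11 and 5 of 11. The same share over all combined borders of X and 3L was not computed. The combined list was made from the same 2 ChIP replicates, so its borders are not independent of theirs. Nothing about the loci is therefore read from these counts. The widest distance, 12323 bp, was at the small domain from 18038388 that replicate 2 did not list.

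Joining neighbouring domains showed how the pieces of replicate 2 relate to the blocks. With domains up to 1000 bp apart joined, the longest stretch of replicate 2 at br measured 50.6 kb, and with 1500 bp it ran from 1442838 to 1522923, 80.1 kb. At Eip75B it was 34.1 kb with 1000 bp, and with 1500 bp it ran from 17946171 to 18017448, 71.3 kb. The widest gaps of replicate 2 inside the blocks were 1469 bp at br and 1198 bp at Eip75B. In the combined list 1500 bp joined the br block to the domains on its left, from 1417748 to 1523003 (105.3 kb), and the Eip75B block to both its neighbours, from 17903926 to 18032181 (128.3 kb).

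Coverage outside the windows differed between the loci and between replicates. Of the 50 kb to the left of the br window, replicate 1 covered 18.0% and replicate 2 covered 45.5%, and of those to the right 11.9% and 63.1%. The nearest bin of 10 kb on the left held no domain in either replicate. The nearest on the right was covered to 16.9% in replicate 1 and 100% in replicate 2. The combined list covered 65.7% of the left 50 kb and 63.0% of the right. It covered 21.8% of the nearest left bin, where its closest domain lay 79 bp from the window. Just outside the window, the closest domains of replicate 1 lay 11724 bp to the left and 28444 bp to the right, with scores above 40.9% and 2.85% of the list. In replicate 2 they lay 10606 bp and 11065 bp away, and the right one followed the last domain of the window after 655 bp.

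Around Eip75B the left side was denser than the right in both replicates. Replicate 1 covered 85.9% of the 50 kb there and replicate 2 covered 63.0%, against 49.1% and 9.00% on the right. The nearest domains outside lay 27571 bp to the left in replicate 1, beyond the domain that enters the window, and 3737 bp in replicate 2. On the right they lay 3608 bp and 5115 bp away, and scored above 79.0% and 71.3% of their lists.

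Covered shares also depend on the extent of the windows. Widened by 30 kb on each side, an alternative chosen after seeing the data, the br window had a covered share of 61.4% for replicate 1 and 74.4% for replicate 2, and lay above 96.4% and 99.4% of the shifted windows. The widened Eip75B window was covered to 82.4% and 64.1% and lay above 98.5% and 97.5%. Whether br reaches past the higher edge of its window, where replicate 1 covered little, was not checked. The values of the narrower window are those of the stated bases and not of the whole gene.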

How the data were processed

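The authors deposited 3 region lists made from ChIP-seq reads, on FlyBase release 5 per the file headers. Bowtie 0.12.7, a short-read aligner, is named in the submitters' processing notes. No source used here gives the region caller, its thresholds, the making of the combined list or the read depth, so values carry no counting error. The score of each region is the authors' deposited value and ranks domains within a list only.

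Covered bases, domain numbers, borders and gaps were computed with Python 3.11.15, numpy 2.4.6 and scipy 1.17.1. Shifted windows began every 10 kb along the arm. Percentiles count ties at their midpoint. Overlap means at least 1 bp. The measures recovered planted windows in each of 100 simulated lists. Each planted window held a long domain among short ones elsewhere, so this checks the computation only. Windows, members and lists were chosen with earlier results of these data known. Named by rule were every combined domain in a window, the longest and the highest-scoring domain per replicate, outer borders, combined gaps of 2 kb or more and, apart, depleted regions. Other regions were named after their values were seen. Other ecdysone genes were not analysed here, because the gene table is on release 6 and coordinates were not converted.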

Additional observations from a re-analysis of the deposited data

How the results depend on the processing

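Over 8 results, 52 of 70 alternative values stayed within the SD over the replicates, the 95% interval of the Jaccard index (in kb of covered sequence) or 1.5 times a count. Of these, 8 could not have moved, because with 2 replicates leaving out 1 moves a mean by less than the SD. The interval of the Jaccard index treats each kb as independent, although neighbouring kb lie in the same domains. It is therefore only a yardstick here and does not measure the spread between replicates. The mean covered share of br (85.1%) was 92.7% in the combined list, 76.5% with the window widened by 10 kb on each side and 67.9% with 30 kb. Its mean rank among shifted windows (99.9%) was 99.6% for domains of 2000 bp or more, 99.6% and 97.9% for the window widened by 10 kb and 30 kb, 99.98% for the window narrowed by 10 kb and 100% among shifted windows that do not overlap. That of Eip75B (97.9%) was 96.3% in the combined list and 98.9% for domains at or above the median score. The mean domain number at br (11.5) was 5 in the combined list and 7 after joining within 1000 bp, and leaving out a replicate gave 7 to 16. At Eip75B (10.5) it was 6 in the combined list, 6.5 after joining and 16 with 30 kb. The Jaccard index (0.858 at both) was 0.650 at br and 0.766 at Eip75B with 30 kb. Widening by 30 kb was chosen after seeing the data. A longer window meets more domains and joining lowers their number by construction; the cause of the other shifts was not tested. No paired analysis was possible because the inputs have no region list here. Region number and length depend on depth, which is unknown.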
